A study of Hydra vulgaris with 22 samples.

Results

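Gastrodermal epithelial stem cells of Hydra vulgaris after 10 days without food were compared with interstitial stem cells of the high eGFP gate. The comparison holds 7 of the 22 libraries of the series, chosen by their labels: 3 of gastrodermal cells, called gESC_10d (A, B and C), and 4 of interstitial cells, called ISC_high (A, B, C and D). All of them are strain AEP, polyadenylated RNA, and cells sorted by fluorescence from the middle of the body column of polyps otherwise fed 3 times a week. The gESC_10d cells carried the transgene actin::eGFP, in which an actin promoter drives a green fluorescent reporter. The ISC_high cells carried cnnos1::eGFP, in which the promoter of a nanos gene drives it, and came from polyps after 2 days (A), 3 days (B and C) and 5 days (D) without food. Cell type, transgene and days without food therefore differ together between gESC_10d and ISC_high and cannot be told apart in this comparison. The libraries outside it that were read beside it were gESC_3d (actin::eGFP, 3 days, n = 3), eESC_3d and eESC_10d (epidermal epithelial stem cells, actin::eGFP, 3 and 10 days, n = 3 and n = 4) and ISC_medium (the medium gate of cnnos1::eGFP, 5 days in A and 3 days in B and C, n = 3). There were also 2 unsorted body column libraries at 10 days, 1 from each transgene. The label of the unsorted cnnos1::eGFP library names gastrodermal cells as those with eGFP, so that library is called by its transgene alone.

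Hydra is a freshwater polyp whose body wall consists of an epidermis on the outside and a gastrodermis that lines the gut. Gastrodermal epithelial cells take up and digest food, and in the body column they also divide and renew their own layer. Interstitial stem cells sit between the epithelial cells, are multipotent, and give rise to nerve cells, stinging cells, gland cells and germ cells. Nanos genes are known from many animals as markers of germ cells and multipotent stem cells. Both populations divide continuously in fed polyps, and Hydra survives long periods without food.

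Counts were deposited per transcript contig, and contigs were summed per stem, the identifier without its isoform number. The 61501 contigs form 44306 stems, of which 18288 held enough counts to be tested. No identifier matched a gene of the reference table (0 matches), so stems are given by identifier and no function can be assigned to them. No cell type marker could be looked up for the same reason. Levels are CPM, the usual depth-scaled count of edgeR, with library sizes scaled by TMM, which sets the bulk of stems equal between libraries. CPM is not divided by transcript length, so a stem's level is compared between libraries and not with that of another stem. The unsorted libraries were outside the fit, and their CPM are scaled by their own total counts alone.

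The 3 gESC_10d libraries held 29843317 to 31723680 counts and the 4 ISC_high libraries held 25195891 to 29383766. Across the tested stems, Spearman correlations were 0.975 to 0.993 within gESC_10d, 0.971 to 0.981 within ISC_high and 0.728 to 0.77 between them. The gESC_10d libraries correlated with gESC_3d at 0.966 to 0.983, and the ISC_high libraries with ISC_medium at 0.909 to 0.937. These values describe libraries measured over the same stems, and they place each group beside the other group labelled with its cell type. Libraries gESC_10d B and C were closer to each other than any other pair within the 2 groups: 21.4% of their stems differed beyond the 95% point of counting error, against 56.6 to 66% in the other pairs and 5% from counting alone. They were kept as separate samples because they are labelled so. A difference beyond counting does not show separate sources, and the labels do not say whether B and C share one. If they do, the tests treat them as more independent than they are. The library eESC_10d C stood apart from its group, with correlations of 0.786 to 0.804 with gESC_10d, against 0.693 to 0.725 for eESC_10d A, B and D. The labels do not say whether libraries of a group came from separate cultures. The p-values measure the spread within groups, estimated jointly over all 20 sorted libraries, eESC_10d C included, and that spread may be technical.

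Most of the stems that passed the filter on counts differed between gESC_10d and ISC_high. Of the 18288 stems tested, 11712 were called, which is 64% of them. A call is an adjusted p-value under 0.05 by edgeR's quasi-likelihood test with Benjamini-Hochberg adjustment. The calls comprised 6570 stems (35.9%) higher and 5142 stems (28.1%) lower in gESC_10d. At a fold of at least 2, 5788 stems (31.6%) were higher and 3532 (19.3%) were lower. Groups did not overlap in 6445 stems (35.2%) that were higher in every gESC_10d library and in 5139 stems (28.1%) that were lower in every one. The balance of directions depended on the scaling. Higher stems were 56.1% of the calls with TMM factors, 50.3% with library size alone and 59.5% with median-of-ratios factors. The median log2 difference of all stems was 0.08 with TMM factors, -0.05 with library size alone and 0.2 with median-of-ratios factors. Fewer cells of a type and less RNA per cell cannot be told apart in libraries of pooled cells.

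The differences were larger in the upward direction than in the downward one. Among stems called at least 2-fold, the median log2 fold change was 3.52 in the 5788 higher stems, with quartiles of 2 and 6.41, and -1.68 in the 3532 lower stems, with quartiles of -2.34 and -1.3. Many of these folds were measured against a group at the floor, taken as at most 3 counts in every library. That was so for 1953 of the higher stems in ISC_high and for 341 of the lower stems in gESC_10d. With those stems set to their lower bounds against 3 counts per library, the medians were 2.64 for the higher and -1.63 for the lower stems. Folds of at least 16 were fitted for 2585 of the higher stems (44.7%) and for 277 of the lower stems (7.84%). With bounds in place these counts were 1692 and 145. At a fold of at least 64 the bounded counts were 850 higher stems and 12 lower stems.

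**Figure D1:**
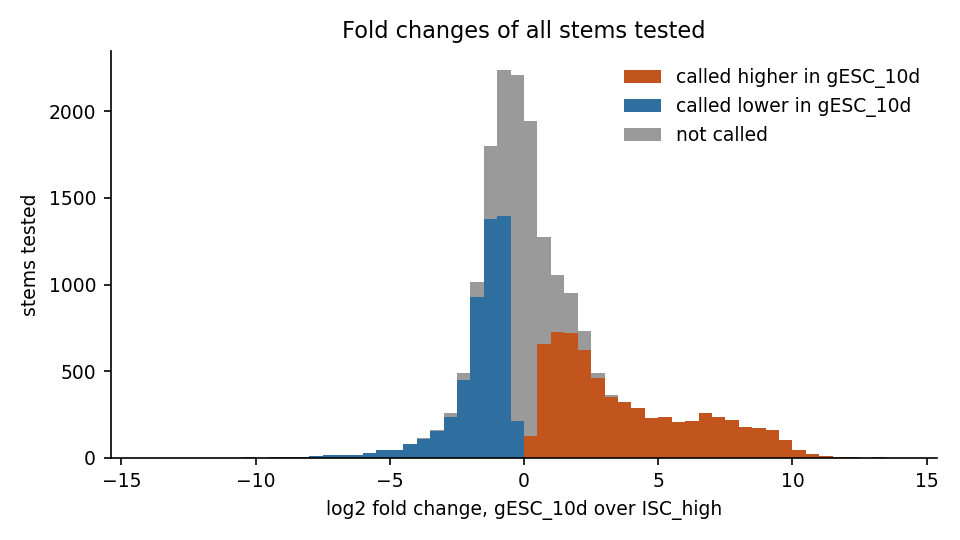
Log2 fold change of gESC_10d over ISC_high (horizontal axis, bins of 0.5) against the number of stems tested (vertical axis), stacked by call. The bars for stems called higher run far to the right, with a median of 2.97 over 6570 stems, while those called lower gather near 0, with a median of -1.33 over 5142 stems; folds against a group at the floor depend on the prior count of the fit.

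The median higher stem was near absence in ISC_high, while the median lower stem stayed measurable in gESC_10d. The 2-fold higher stems had a median group mean of 5.19 CPM in gESC_10d and 0.192 CPM in ISC_high. Their upper quartile in ISC_high was 3.09 CPM, and 702 of the 5788 had at least 10 CPM there. The 2-fold lower stems had a median of 3.61 CPM in gESC_10d and 13.3 CPM in ISC_high. Between 22% and 28.7% of the higher stems had no count at all in an ISC_high library. By comparison, 7.87%, 4.56% and 4.64% of the lower stems had no count in gESC_10d A, B and C. The libraries also differed in how many stems had any count. These were 27669, 33865 and 33882 in gESC_10d A, B and C, and 26855, 33484, 29518 and 28128 in ISC_high A, B, C and D. Direction also varied with level. Among the 6198 stems with a mean of up to 1 CPM, 34.4% were at least 2-fold higher and 14.1% were at least 2-fold lower. Among the 2417 stems of 30 to 100 CPM the shares were 27.8% and 26.6%, and among the 900 stems of 100 to 300 CPM they were 24.8% and 27.6%. Among the 316 stems of 300 to 1000 CPM they were 31% and 19%, so the shares did not move steadily with level. Of the 144 stems over 1000 CPM, 15.3% were at least 2-fold higher, 6.25% were at least 2-fold lower and 44.4% were called at any fold.

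**Figure D2:**
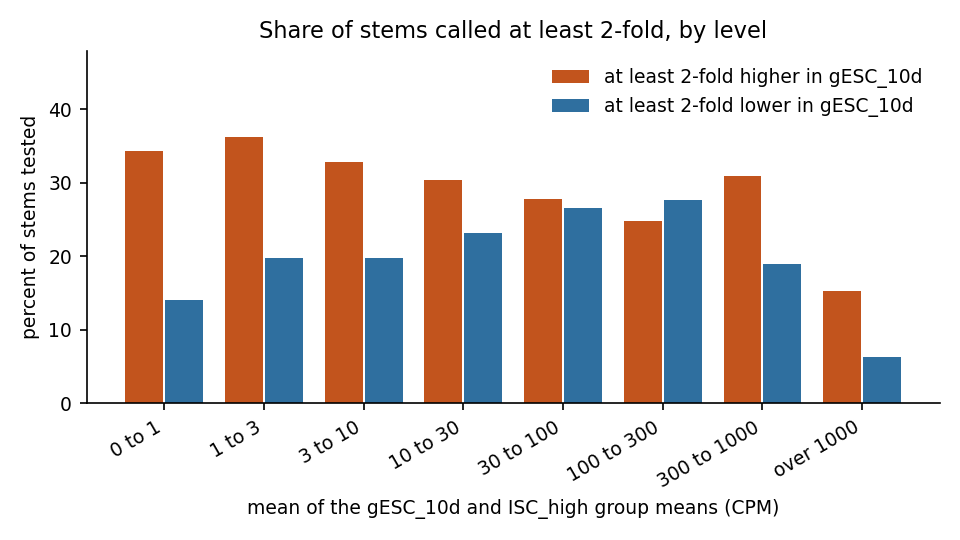
Percent of tested stems called at least 2-fold higher (orange) and at least 2-fold lower (blue) in gESC_10d, by the mean of the gESC_10d and ISC_high group means in CPM. Higher stems lead at low levels, with 34.4% against 14.1% up to 1 CPM, and the shares are closest at 30 to 100 CPM, with 27.8% and 26.6%; higher stems lead again at 300 to 1000 CPM, with 31% and 19%.

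Measured as RNA, the higher stems made up a large part of the gastrodermal libraries. They held 38.1%, 38.3% and 33.5% of the counts of gESC_10d A, B and C, a mean of 36.6% ± 2.74 (SD, n = 3), against 5.5% ± 0.27 (SD, n = 4) in ISC_high. The lower stems held 7.19% ± 0.709 (SD, n = 3) of the counts in gESC_10d and 23.9% ± 1.43 (SD, n = 4) in ISC_high. These shares describe stems chosen in the same 7 libraries. The spread in gESC_10d moved with 1 stem, c26324_g1, which took 9.36%, 4.84% and 15.4% of the counts of A, B and C. With that stem left out of the total, the higher stems held 42.1%, 40.2% and 39.6%.

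The other libraries were outside the contrast that chose the stems, although the sorted ones shared its filter, scaling and estimate of spread. They gave a like split. In gESC_3d the higher stems held 37.2% ± 0.508 of the counts (SD, n = 3), and in ISC_medium they held 6.57% ± 0.278 (SD, n = 3). The epidermal libraries lay between them, at 25.5% ± 0.81 in eESC_3d (SD, n = 3) and 24.1% ± 0.82 in eESC_10d (SD, n = 4). The unsorted body columns held 29.3% (actin::eGFP) and 28.1% (cnnos1::eGFP). The lower stems held 7.6% ± 0.522 of the counts in gESC_3d and 19.3% ± 0.328 in ISC_medium (SD, n = 3 each). In epidermal cells the lower stems held 10.5% ± 0.234 in eESC_3d and 10.4% ± 0.663 in eESC_10d, and in the unsorted libraries 8.5% and 8.31%. No gESC_3d library overlapped with an ISC_medium library in either share.

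**Figure D3:**
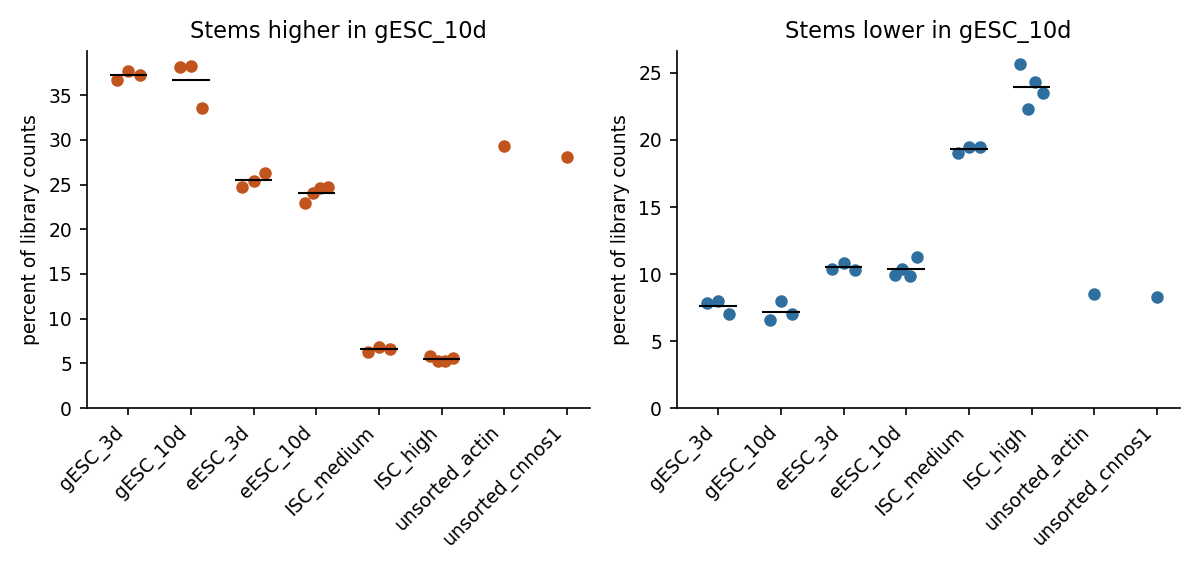
Percent of each library's counts (vertical axes, from 0) in the 5788 stems at least 2-fold higher and the 3532 stems at least 2-fold lower in gESC_10d than in ISC_high; points are libraries and lines are group means. The higher stems hold 37.2% in gESC_3d and 36.6% in gESC_10d on average, against 6.57% in ISC_medium and 5.5% in ISC_high, with the epidermal and unsorted libraries between.

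The median stem of the sets gave the same order. For the higher stems the library medians averaged 5.04 CPM in gESC_10d and 0.174 CPM in ISC_high, and 4.76 CPM in gESC_3d and 0.297 CPM in ISC_medium. They averaged 1.79 CPM in eESC_3d. In eESC_10d they were 1.74, 1.93, 3.3 and 1.91 CPM in A, B, C and D, highest in C. For the lower stems the medians averaged 3.6 CPM in gESC_10d and 13.1 CPM in ISC_high, 3.5 CPM in gESC_3d and 9.31 CPM in ISC_medium, and 5.4 CPM in eESC_3d. Epidermal medians thus lay between in both sets, but the sets were chosen as stems at least 2-fold apart between gESC_10d and ISC_high. That choice alone favors a place between them for other cells. Across all tested stems, eESC_3d correlated at 0.702 to 0.73 with gESC_10d and at 0.718 to 0.757 with ISC_high. The gESC_10d and ISC_high libraries correlated with each other at 0.728 to 0.77.

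Gastrodermal and interstitial cells were compared a second time in libraries shared with neither gESC_10d nor ISC_high, within the same fit. ISC_medium is another eGFP gate than ISC_high, and whether both gates hold the same cells was not tested. For gESC_3d against ISC_medium, 11019 of the 18288 stems (60.3%) were called, 34% higher and 26.2% lower, and at a fold of at least 2 these were 29.6% and 18.7%. Of the 5788 stems at least 2-fold higher in gESC_10d, 4720 (81.5%) were called higher in gESC_3d, 206 (3.56%) were called lower and 862 were not called. Of the 3532 stems at least 2-fold lower, 2604 (73.7%) were called lower, 17 were called higher and 911 were not called. The medians of these sets were a log2 fold change of 3.26 and -1.31 in gESC_3d over ISC_medium, beside 3.52 and -1.68 in gESC_10d over ISC_high. Of the 6576 stems not called between gESC_10d and ISC_high, 13% were called higher and 18.7% lower in gESC_3d. Counted at 2-fold on both sides, 4578 higher stems were shared, 79.1% of the list from gESC_10d and 84.6% of the 5410 from gESC_3d. For the lower stems 2011 were shared, 56.9% of the list from gESC_10d and 58.8% of the 3419 from gESC_3d. The labels do not say whether the ISC_high and ISC_medium cells were gated from the same polyps.

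**Figure D4:**
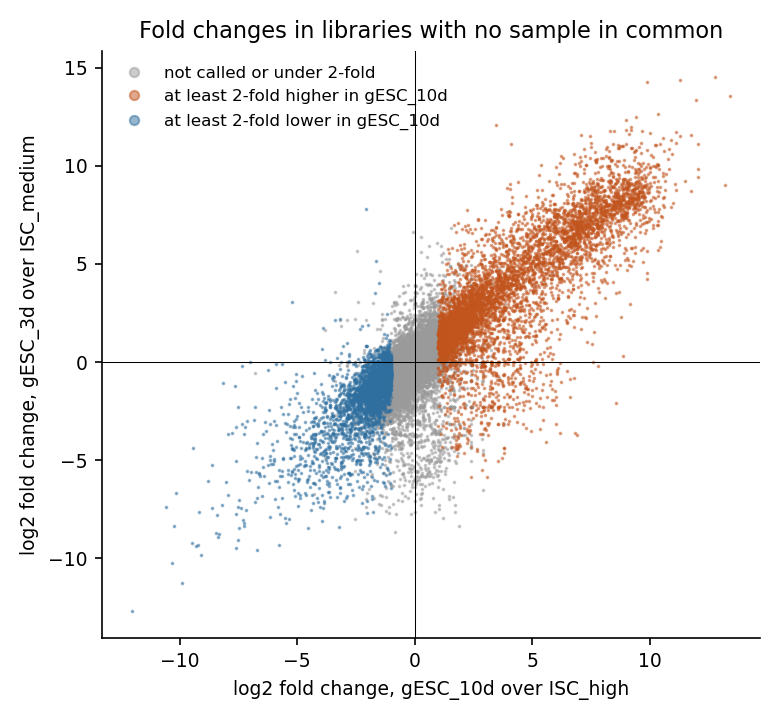
Each point is a stem, with the log2 fold change of gESC_10d over ISC_high (horizontal axis) and of gESC_3d over ISC_medium (vertical axis), colored by its call in gESC_10d against ISC_high. Of the 5788 orange stems 4720 were called higher on the vertical axis, and below the horizontal line lie the 206 called lower there.

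The 206 stems called in opposite directions were picked out after their calls were known, so the choice itself sets their order between the paired groups, but not their levels in epidermal and unsorted libraries. Their library medians averaged 1.02 CPM in gESC_10d and 0.096 CPM in ISC_high, 0.968 CPM in gESC_3d and 5.31 CPM in ISC_medium. They averaged 2.24 CPM in eESC_3d and 4.91 CPM in eESC_10d, and were 11.1 and 10.6 CPM in the unsorted actin::eGFP and cnnos1::eGFP libraries. Their medians were thus highest in the unsorted body columns, which the choice did not use.

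The size of the gap itself was set against that of the second pair of groups by a contrast added after the data were seen. The log2 fold change differed between gESC_10d over ISC_high and gESC_3d over ISC_medium in 2840 stems (15.5%), 1311 of them above 0 (7.17%) and 1529 below (8.36%). No split of this count by the higher and lower stems is given, since those were chosen on one of the fold changes compared. Of the 4 stems named here that had counts in all of these groups, 0 were called for this difference, with the smallest adjusted p-value (0.072, edgeR's quasi-likelihood test) for c25578_g1. For c22064_g2 and c19262_g1 the difference could not be estimated, because each had 0 counts in a group of both pairs. The eGFP gate, the days without food and the library totals (19422544 to 25455639 in gESC_3d and 18559123 to 20327106 in ISC_medium) all differ between these pairs and cannot be told apart.

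Part of the difference was also found between epidermal cells and ISC_medium, libraries that again share none with gESC_10d or ISC_high. For eESC_3d against ISC_medium, 10883 stems (59.5%) were called, 32.5% higher and 27.1% lower, and at a fold of at least 2 these were 28.7% and 18.6%. Of the 5788 stems at least 2-fold higher in gESC_10d, 3059 (52.9%) were called higher in eESC_3d, 393 (6.79%) were called lower and 2336 (40.4%) were not called. Of the 3532 stems at least 2-fold lower, 2241 (63.4%) were called lower in eESC_3d, 247 (6.99%) were called higher and 1044 were not called. At 2-fold on both sides, 2901 higher stems were shared, 50.1% of the list from gESC_10d and 55.3% of the 5248 from eESC_3d. Of the lower stems 1662 were shared, 47.1% of the list from gESC_10d and 48.9% of the 3401 from eESC_3d. The comparisons with eESC_3d and with gESC_3d share the ISC_medium libraries, and the difference between them was not tested.

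To bring the fasting time nearer, gESC_3d was also compared with ISC_high, which shares the ISC_high libraries with gESC_10d against ISC_high. It gave 11952 called stems (65.4%), 6522 higher (35.7%) and 5430 lower (29.7%), beside 6570 and 5142 for gESC_10d against ISC_high. At a fold of at least 2 it gave 31.2% higher and 21.1% lower, beside 31.6% and 19.3% for gESC_10d against ISC_high. Higher stems were 54.6% of these calls with TMM factors and 43.8% with library size alone, so which direction held more calls depended on the scaling. Limiting ISC_high to B and C, both at 3 days, left 11076 calls for gESC_10d against ISC_high, 6425 of them higher and 4651 lower.

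Some stems were plainly present in one population and at the floor in the other. At most 3 counts in every ISC_high library and a mean of at least 10 CPM in gESC_10d were found for 151 stems. The reverse, at most 3 counts in every gESC_10d library and at least 10 CPM in ISC_high, was found for 2. The first count rested on ISC_high B, the library with the most detected stems of its group (33484, against 26855 to 29518 in the others), and without it 287 stems met the rule. With the level lowered to 1 CPM the counts were 786 and 65. The share of stems at the floor is limited by depth: 3 counts correspond to 0.0881 to 0.109 CPM in a gESC_10d library and 0.0869 to 0.107 CPM in an ISC_high library.

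The 151 stems were then read in the other libraries. In gESC_3d, 150 of them were above 3 counts in every library and 0 were at or under it throughout. In ISC_medium, 124 were at or under 3 counts in every library. In eESC_3d, 56 were at or under 3 counts in every library and 49 were above it in every one. In eESC_10d, 3 were at or under 3 counts in every library and 73 were above it in every one. In the unsorted body columns, 142 were above 3 counts in both libraries and 1 was at or under it in both. Of the 151, 150 (99.3%) were called higher in gESC_3d against ISC_medium, beside 34% of all tested stems. In eESC_3d against ISC_medium 49 (32.5%) were called higher and 3 lower, beside 32.5% and 27.1% of all tested stems. Their median level was 21.5, 17.3 and 16.7 CPM in gESC_10d A, B and C, and 0.0319 ± 0.0239 CPM in ISC_high (SD, n = 4). In the unsorted libraries it was 5.69 CPM (actin::eGFP) and 5.15 CPM (cnnos1::eGFP). In eESC_10d it was 0.189, 0.172, 1.91 and 0.192 CPM in A, B, C and D, so library C lay apart from the other three. With eESC_10d C left out of the fit, 11630 stems were called between gESC_10d and ISC_high.

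Among the called stems with groups that did not overlap and a mean of at least 10 CPM, the largest fitted rise belonged to c22064_g2, a stem of 2 contigs. It held 1601, 1806 and 1630 counts in gESC_10d A, B and C, or 58.4, 53 and 53.1 CPM, against 0 counts in all 4 ISC_high libraries. The level was at least 566-fold higher in gESC_10d, taken against 3 counts per library, with an adjusted p-value of 4.8e-12 from edgeR's quasi-likelihood test. In the other gastrodermal libraries it had 66.5, 66.4 and 49.6 CPM in gESC_3d A, B and C, against 0 counts in all 3 ISC_medium libraries (adjusted p-value 6.1e-11, the same test). It had at most 2 counts in any eESC library. It also had 0 counts in both unsorted body column libraries, where a count of 0 allows up to 0.194 CPM (actin::eGFP) and 0.215 CPM (cnnos1::eGFP).

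The absence of c22064_g2 from the unsorted libraries set it apart from the other 150 stems of its kind, and it was the only one of the 151 at or under 3 counts in both. Another stem that carries the same component number in its identifier had 24.6, 19.1 and 19.9 CPM in gESC_10d A, B and C and 0.0614 to 0.116 CPM in ISC_high. That stem was found in the unsorted libraries, at 6.6 CPM (actin::eGFP) and 7.16 CPM (cnnos1::eGFP). It had 20.8, 27.5 and 18.9 CPM in gESC_3d A, B and C. In eESC_10d it had 0.189, 0.172, 2.31 and 0.274 CPM in A, B, C and D, while c22064_g2 had 0 counts in eESC_10d C. By a rule added after the data were seen, 197 stems were above 3 counts in all 6 gastrodermal libraries and at or under 3 counts in the 16 others. Of those, 1 reached a mean of 10 CPM, and it was c22064_g2. The titles of the epidermal and unsorted actin::eGFP libraries carry the word ecto, and those of the gastrodermal libraries carry endo. Whether these words mark separate transgenic lines is not said. Line and cell type therefore cannot be told apart for c22064_g2 or the other stems of this rule.

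The largest fitted fall belonged to c19262_g1, a stem of 1 contig, which mirrored that pattern. It held 0 counts in gESC_10d A, B and C, against 460, 689, 528 and 871 counts in ISC_high A, B, C and D, or 15.6, 20, 16.2 and 31.1 CPM. It was at least 210-fold lower in gESC_10d, taken against 3 counts per library, with an adjusted p-value of 1.7e-10 from edgeR's quasi-likelihood test. All 3 gESC_3d libraries also held 0 counts, against 47.7, 21.9 and 30.6 CPM in ISC_medium A, B and C (adjusted p-value 2.7e-10, the same test). Epidermal cells held it at 21.9 ± 4.67 CPM in eESC_3d (SD, n = 3) and 11.5 ± 0.748 CPM in eESC_10d (SD, n = 4). The unsorted libraries had 69.7 CPM (actin::eGFP) and 61.5 CPM (cnnos1::eGFP), above every sorted library. Each of the 6 gastrodermal libraries thus had no count of a stem that each of the 16 others held. In all, 29 stems were at or under 3 counts in the 6 gastrodermal libraries and above 3 counts in the 16 others, and 7 of them reached a mean of 10 CPM there. Transgenic line and cell type cannot be told apart for these 29 stems either, c19262_g1 among them.

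The largest difference in CPM among the rising stems was that of c25578_g1, a stem of 2 contigs that is abundant in every library. It had 21796, 21586 and 21778 CPM in gESC_10d A, B and C, against 4741, 3629, 4060 and 4462 CPM in ISC_high A, B, C and D. The groups lay far apart, and the SD over the gESC_10d libraries was 116 CPM. The log2 fold change was 2.36 with a standard error of 0.188, a 5.14-fold difference (adjusted p-value 1.8e-09 by edgeR's quasi-likelihood test). It averaged 28456 ± 9660 CPM in gESC_3d and 28924 ± 5544 CPM in eESC_3d, against 9277 ± 424 CPM in ISC_medium (SD, n = 3 each). Both were called higher than ISC_medium, with log2 fold changes of 1.62 in gESC_3d and 1.64 in eESC_3d (adjusted p-values 1.2e-06 and 9e-07, the same test). The unsorted libraries had 18899 CPM (actin::eGFP) and 18729 CPM (cnnos1::eGFP).

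The largest fall in CPM was that of c26283_g1, a stem of 2 contigs. It had 1877, 2083 and 2056 CPM in gESC_10d A, B and C, against 4809, 5357, 6478 and 5395 CPM in ISC_high A, B, C and D. Every gESC_10d library lay below every ISC_high library. The log2 fold change was -1.46 with a standard error of 0.25 (adjusted p-value 3.9e-05 by edgeR's quasi-likelihood test). It averaged 2690 ± 1249 CPM in gESC_3d and 2742 ± 716 CPM in eESC_3d, against 6915 ± 835 CPM in ISC_medium (SD, n = 3 each). Both were called lower than ISC_medium, with log2 fold changes of -1.36 in gESC_3d and -1.33 in eESC_3d (adjusted p-values 0.00016 and 0.00019, the same test). The unsorted libraries had 2161 CPM (actin::eGFP) and 2164 CPM (cnnos1::eGFP), near the epithelial level.

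The most abundant stems that were not called were c26324_g1 and c25067_g1, and they differed in their spread. The stem c26324_g1, of 1 contig, had 101825, 44266 and 159536 CPM in gESC_10d A, B and C, against 62924, 97348, 83755 and 60858 CPM in ISC_high A, B, C and D. The gESC_10d libraries spanned the whole range of ISC_high, and the log2 fold change of 0.42 had a standard error of 0.713 (adjusted p-value 0.63 by edgeR's quasi-likelihood test). For this stem a difference was not detectable at the spread between libraries. Its log2 fold change was -0.26 with the replicate letter as a block and 0.06 to 0.8 in the other fits run, with no call in any of them.

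The stem c25067_g1, of 4 contigs, had 9381, 9603 and 9586 CPM in gESC_10d A, B and C, against 8998, 8969, 10389 and 10194 CPM in ISC_high A, B, C and D. The groups overlapped, and the log2 fold change was -0.02 with a standard error of 0.199 (adjusted p-value 0.96 by edgeR's quasi-likelihood test). In other groups the stem averaged 18559 ± 1076 CPM in ISC_medium and 13317 ± 5133 CPM in gESC_3d (SD, n = 3 each). It was called higher in gESC_3d than in ISC_high (log2 fold change 0.47, adjusted p-value 0.045, the same test). Within gESC_10d and ISC_high its sum was steady while its contigs were not. Contig c25067_g1_i02 held 95.5%, 39.6% and 96.2% of the stem's counts in gESC_10d A, B and C, and 76.6%, 98%, 98.3% and 80.5% in ISC_high A, B, C and D. Contig c25067_g1_i04 held 0.208%, 52.5% and 0.946% in gESC_10d A, B and C, and 10.2%, 0.344%, 0.142% and 2.05% in ISC_high A, B, C and D. The split of counts between contigs of this stem thus differed between libraries of the same group. Contigs of a stem may share reads, so values of single contigs are uncertain.

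**Figure D5:**
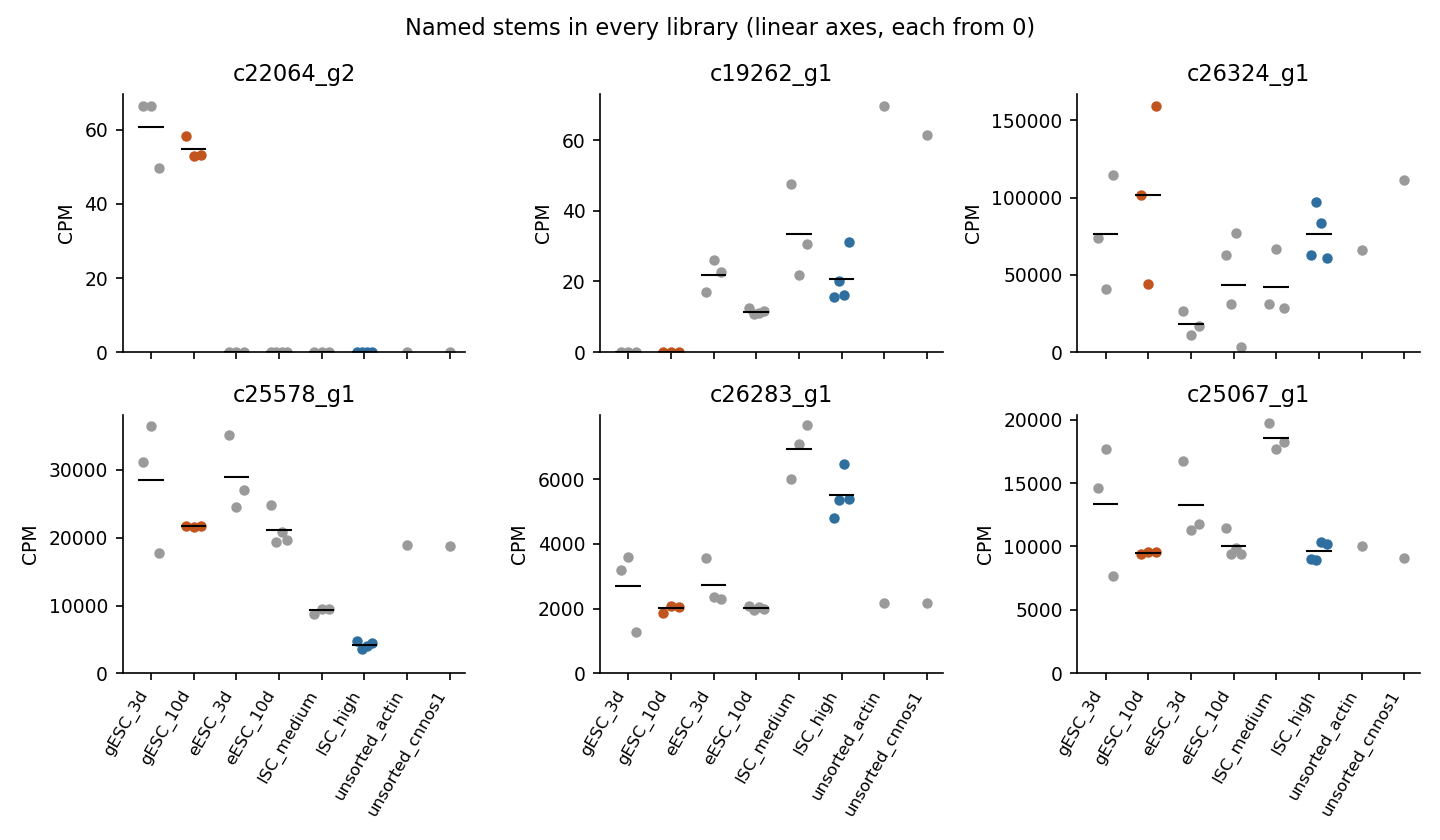
CPM of the 6 named stems in every library, by group, on linear axes that each start at 0; points are libraries, lines are group means, orange marks gESC_10d and blue marks ISC_high. c22064_g2 lies between 49.6 and 66.5 CPM in both gESC groups and at or near 0 elsewhere, c19262_g1 is at 0 in both gESC groups, and c26324_g1 overlaps between gESC_10d and ISC_high.

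Counting contigs in place of stems left the comparison of like size, with 13790 contigs called of 28522 tested, 8308 of them higher and 5482 lower. Of the 5929 stems with several tested contigs, 332 (5.6%) held contigs called in opposite directions. Those 332 included 88 of the 2-fold higher stems, 53 of the 2-fold lower stems, 85 called at less than 2-fold and 106 not called. Stems with several contigs were 37.1% of the higher stems, 43.6% of the lower stems, 40.4% of those not called and 41.3% of all tested. The spread between libraries differed between the groups: over 6943 stems with a mean of at least 10 CPM, the median coefficient of variation was 10.1% in gESC_10d and 17.3% in ISC_high. For gESC_10d B and C alone it was 3.23%. With B and C summed as 1 library, 10954 stems were called, 6669 higher and 4285 lower.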

How the data were processed

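Polyadenylated RNA of 20 sorted and 2 unsorted libraries was analysed from the deposited raw counts per contig. The submitters' processing notes list cutadapt 1.11, Salmon 0.7.2 and DESeq2, without their roles; the transcriptome is not given in the sources used here. A second deposited table holds a signal, the counts of 26024 contigs scaled by 1 factor per library; only its factors were used, as an alternative. Counts were summed per stem and tested with edgeR 4.0.16 in R 4.3.3 (quasi-likelihood F test, TMM, minimum count 10, minimum total 15), with 1 mean per group over the 20 sorted libraries. The same steps were run on simulated counts in which far fewer stems changed than were called here. That run therefore does not test the calls under changes this widespread. A call is a Benjamini-Hochberg adjusted p-value under 0.05 over all 18288 stems. Reads carry no molecular identifiers, so floors of 3 counts cover counting error only.

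The stems named are, in each direction, the called stem with the largest fold (at least 10 CPM, groups not overlapping) and the one with the largest difference in CPM, plus the 2 most abundant stems not called. The groups, rules and lists were chosen with earlier results of these data known. Deviations from the group means correlated between same-lettered gESC_10d and ISC_high libraries at 0.382 (A), 0.258 (B) and 0.204 (C). Each gESC_10d library correlated more highly with an ISC_high library of another letter: A with D at 0.406, B with C at 0.269 and C with B at 0.399. These values thus do not show that the letters mark pairs, and the labels name no shared batch.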

Additional observations from a re-analysis of the deposited data

Results flagged for a closer look

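In the group eESC_10d, library C had a median of 3.3 CPM over the 5788 stems higher in gESC_10d, above the other 3 libraries by more than their own spread. The same library had a median of 1.91 CPM over the 151 stems at the floor in ISC_high, where the other 3 libraries had 0.172 to 0.192 CPM. For c22064_g2, eESC_10d D held 1 count (0.0274 CPM), against 0 counts in the other 3, a gap of 1 count. A gap of this kind was looked for in 25 sets of 4 libraries and found in 3. The usual rate by chance of about 1 in 20 does not apply to counts of 0 and 1, where 1 count makes a gap. Both flags of eESC_10d C come from overlapping sets of stems, so the 3 were not set against that rate. The log2 fold change differed between gESC_10d over ISC_high and gESC_3d over ISC_medium in 2840 stems by edgeR's quasi-likelihood test.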

How the results depend on the processing

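The count of stems called between gESC_10d and ISC_high stayed within 1.5 times of 11712 without a filter on counts, with median-of-ratios factors, library size alone or the authors' factors, with DESeq2 1.42.0, with a term for the depth class, with contigs, and in fits of the 2 groups alone. The share called depended on what was tested, with 11712 of 18288 stems called in the main fit. Without a filter 14606 of 44296 stems were called, at a mean of at least 5 CPM 6638 of 8569, and 13790 of 28522 contigs. With the replicate block, 11410 stems were called, 9142 of them at least 2-fold, and no call of a named stem changed. Requiring a mean of at least 5 CPM tests fewer stems and gave 6638 calls, 4273 of them at least 2-fold, and 6443 for gESC_3d against ISC_medium, 6504 for eESC_3d against ISC_medium and 6675 for gESC_3d against ISC_high. Leaving out 1 replicate gave 10892 to 11630 calls (9053 to 9288 at least 2-fold), 10244 to 10971 for gESC_3d against ISC_medium, 9986 to 10679 for eESC_3d against ISC_medium and 11378 to 11725 for gESC_3d against ISC_high. Stems at the floor in ISC_high numbered 397 at up to 10 counts, 786 at 1 CPM and 142 to 287 with 1 replicate left out. In gESC_10d these numbers were 5, 65 and 2 to 3. At a 4-fold threshold the higher stems held 28.8% of counts in gESC_10d and 2.12% in ISC_high, and the lower stems 0.531% and 4.16%. Without the most abundant stem the higher stems held 40.6% and 6.03%, and the lower stems 7.98% and 26.2%. The 4-fold values count fewer stems. No named stem changed its call between gESC_10d and ISC_high under any alternative run on stems, and the run on contigs did not test stems. The leave-outs of the floor rule, the removal of the most abundant stem, the sum of gESC_10d B and C and the fit without eESC_10d C were chosen after seeing the data.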
